A study of Mus musculus with 16 samples.

Results

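The 10 genes followed here belong to the circadian clock and were measured in mouse kidney cortex: Clock, Per1, Per2, Per3, Cry1, Cry2, Nr1d1, Nr1d2, Dbp and Tef. They were picked by symbol as core clock and clock output genes, by a rule that used no measured value, though with earlier results of these data known. All 10 members were found among the 56980 gene identifiers of the count table, and all 10 passed the filter on low counts that left 17972 genes to test. The samples were 16 kidney cortices of male C57Bl/6J mice in 4 groups of 4. Control mice were Degs1fl/fl littermates (fl/fl). The other genotype was Degs1iGKO (iGKO), in which Rosa26-CreERT2, a tamoxifen-activated Cre recombinase made in all cell types, deletes Degs1, the desaturase that completes ceramide synthesis. Both genotypes received 3 mg tamoxifen on 5 days from 9 weeks of age. At 12 weeks, under ketamine and xylazine with buprenorphine and bupivacaine, mice of each genotype had bilateral ischaemia-reperfusion injury (IRI), a 28 min clamp of both renal pedicles, or a sham operation without the clamp. Tissue was taken 24 h later in every group. The labels give no clock hour of surgery or of tissue collection, so any difference in hour between the groups cannot be told apart here from the operation or the genotype.

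The clock is a feedback loop of transcription found in nearly every cell. CLOCK and its partner BMAL1, encoded by Arntl, bind E-box elements and switch on the Per and Cry genes, whose proteins return to the nucleus and block CLOCK and BMAL1. A second loop runs through Nr1d1 and Nr1d2, which encode the heme receptors REV-ERB alpha and beta and repress Arntl, Npas2 and Nfil3. Dbp, Tef and Hlf encode activators of D-box elements, which NFIL3 represses. In the kidney, clock output shapes the daily rhythm of filtration, sodium handling and blood pressure, and in nocturnal rodents Dbp, Nr1d1 and the Per genes peak at a phase opposite to Arntl. Levels are given as CPM (library-size scaled counts with TMM factors), and a gene is said to rise or fall only where edgeR's quasi-likelihood test, adjusted over all 17972 genes by the Benjamini-Hochberg method, gave a p under 0.05.

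The promoters of several members carry the elements through which the loop acts on itself, and these are shown for genes that in fl/fl after IRI fell (Per3, Tef), rose (Cry1) or did not pass the test (Per1). Promoter windows from 250 bases before to 50 after a start were taken from RefSeq (GRCm38.p6) for 9 of the 10 members, in 13 windows; Per2 had none in the table. Searched on both strands, the E-box CACGTG was in 7.15% of all 32851 windows, the D-box core TTANGTAA in 2.32%, the element TAGGTCA of the REV-ERB receptors in 2.61%, and the cyclic AMP element TGACGTCA in 1.79%. None of these motifs overlapped another in the stretches shown. An E-box was found before starts of Per1, Cry1 and Tef, and a pair of D-box cores before Per3. No other member window held one of the 4 motifs, which says only that these letters are not in those windows. Each stretch reads 5′ to 3′ on the gene's strand, with the motif in capitals. Those of Per3 (chr4:151044776-151044910, minus strand), Cry1 (chr10:85185069-85185154, minus strand), Per1 (chr11:69098743-69098828, plus strand) and both starts of Tef (chr15:81802506-81802591 and chr15:81811236-81811321, plus strand) are as follows.
Per3: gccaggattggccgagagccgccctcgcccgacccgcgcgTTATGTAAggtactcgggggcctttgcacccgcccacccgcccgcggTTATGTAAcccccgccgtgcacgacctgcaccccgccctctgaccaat
Cry1: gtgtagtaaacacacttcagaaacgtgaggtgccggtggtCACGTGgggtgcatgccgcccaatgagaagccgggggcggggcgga
Per1: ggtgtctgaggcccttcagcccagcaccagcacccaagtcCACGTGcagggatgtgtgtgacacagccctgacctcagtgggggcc
Tef, upstream start: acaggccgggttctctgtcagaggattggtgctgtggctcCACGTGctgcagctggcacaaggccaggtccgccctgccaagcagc
Tef, downstream start: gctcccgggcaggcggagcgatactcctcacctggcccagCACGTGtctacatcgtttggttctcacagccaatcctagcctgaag

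Total counts ran from 12704273 to 18816343 per library, and single members had between 49 (Cry1) and 8181 (Tef) reads in a library, so Cry1 is the member whose values carry the most counting error. Nothing in the labels says that samples of a group shared an animal, and p-values measure the spread between the samples. Degs1 RNA in iGKO stood at 56.8% of fl/fl after sham and 48.4% after IRI without overlap (exact two-sided permutation p = 0.0286 each, the smallest that 4 against 4 can give). Markers of the proximal tubule, the main cell of the cortex, were all detected (8 of 8). After sham their summed level was 18890 to 21150 CPM (fl/fl) and 17160 to 21450 CPM (iGKO). After IRI it was 4309 to 15300 CPM (fl/fl) and 12130 to 16280 CPM (iGKO). The tubular injury markers summed to 1655 to 2552 CPM in fl/fl IRI 2, 3 and 4, to 159 in fl/fl IRI 1 and to 9.01 to 180 in all other libraries. Of the libraries that stood apart, iGKO sham 4 had 0.443% of its counts from mitochondrial genes against 2.05% to 6.48% elsewhere, and the calls of members that turned on it, on fl/fl IRI 1 or on fl/fl IRI 4 are given with and without them. In bulk tissue, fewer cells of a type and less RNA per cell cannot be told apart.

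Per length of exon sequence, the output genes were the most abundant members in control kidneys. In fl/fl sham, Tef reached 54.8 and Dbp 50.8 CPM per kb, followed by Nr1d1 at 35.7 and Nr1d2 at 22.5. Per1 (13.6), Per2 (11.9) and Per3 (9.44 CPM per kb) came next, then Clock (6.88) and Cry2 (6.01), and Cry1 was lowest at 1.45. In this order, the ranges over the 4 libraries overlapped between all neighbours except Nr1d1 (29.5 to 40.6 CPM per kb) and Nr1d2 (19.5 to 25.8), and Cry2 (5.41 to 7.01) and Cry1 (1.03 to 2.07). Arntl, the partner of Clock, stood at 0.888 CPM per kb. The members also differed in how much animals of 1 group varied. The pooled SD within groups on the log2(CPM + 0.5) scale was 0.70 for Per1, more than in 94.7% of tested genes, 0.66 for Dbp (93.5%) and 0.61 for Cry1 (91.0%). At the other end it was 0.24 for Nr1d1 and 0.22 for Nr1d2, below the median of 0.34 over all genes.

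How control kidneys responded a day after ischaemia was read from fl/fl IRI against fl/fl sham. The REV-ERB gene Nr1d1, the D-box activator Tef and the repressor Per3 fell, and the repressor Cry1 rose, while the log2 values of Clock and Cry2 were near 0. The fall was to 58.8% of the sham mean for Nr1d1, 43.2% for Tef and 50.7% for Per3. Thus 1 member of 10 rose and 3 fell, against 8.46% of all genes that rose and 7.01% that fell. The median log2 fold change of the 10 was -0.48, beside 0.01 over all genes. The groups did not overlap for 3 members, each lower after IRI (Nr1d1, Tef and Dbp), against 9.82% of all genes lower and 9.65% higher without overlap.

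Among the activators, Clock, the partner of Arntl in the core activator, had a log2 value near 0. It stood at 101, 92.0, 83.4 and 101 CPM in fl/fl sham 1 to 4 and at 66.3, 115, 104 and 97.6 CPM in fl/fl IRI 1 to 4. The log2 fold change was 0.02 ± 0.29 (SE, adjusted p = 0.973). Its partners were far lower in abundance. Arntl ranged over 4.33 to 11.2 CPM after sham and 7.71 to 19.7 CPM after IRI (log2 0.80 ± 0.43, adjusted p = 0.214). Npas2, the paralogue that can replace Clock, ranged over 2.94 to 7.39 CPM after sham and was 1.85, 6.36, 6.27 and 35.3 CPM in fl/fl IRI 1 to 4. The mean of Npas2 after IRI thus rests mainly on fl/fl IRI 4, and its log2 value of 1.42 ± 0.69 did not pass (adjusted p = 0.178).

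The Per and Cry repressors did not move as a block. Per3 stood at 92.5, 59.9, 98.0 and 112 CPM in fl/fl sham and at 74.3, 43.7, 37.5 and 28.2 CPM in fl/fl IRI. Only fl/fl IRI 1 reached the sham range, and Per3 fell by 0.98 ± 0.27 on the log2 scale (adjusted p = 0.0227). Per2 was 68.2, 49.8, 70.8 and 88.7 CPM in fl/fl sham and 60.6, 45.0, 34.7 and 38.8 in fl/fl IRI. In this group 3 libraries lay below every sham library, but the log2 value of -0.63 ± 0.24 did not pass (adjusted p = 0.0849). Per2 passed without fl/fl IRI 1 (log2 -0.81, adjusted p = 0.0255) and without iGKO sham 3 (-0.63, 0.0468). Per1, which besides the clock is switched on directly by glucocorticoids and cyclic AMP, showed no shift in common. It was 72.8, 38.8, 121 and 74.0 CPM in fl/fl sham and 86.1, 43.9, 97.6 and 249 CPM in fl/fl IRI. Its log2 fold change of 0.64 ± 0.44 (adjusted p = 0.344) became -0.01 without fl/fl IRI 4. In that library the glucocorticoid-responsive genes Zbtb16, Fkbp5, Sgk1, Klf9 and Errfi1 were also high, at 199.6, 371.9, 289.8, 409.3 and 1307 CPM, above every other library. Tsc22d3, the remaining gene of the list, was not, at 56.9 CPM against 30.1 to 69.3 CPM in fl/fl sham. Of the 7 genes of that list, Per1 among them, none passed the test in fl/fl, against 8.46% of all genes that rose and 7.01% that fell. Without fl/fl IRI 4 the log2 value of Klf9 in fl/fl went from 0.01 to -0.56 (adjusted p = 0.0317). The part of glucocorticoid-responsive transcription in the level of Per1 was not tested.

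Cry1, the strongest repressor of the loop and normally a late one, stood at 5.06, 4.02, 3.42 and 6.92 CPM in fl/fl sham. In fl/fl IRI it stood at 12.0, 6.49, 8.65 and 28.6 CPM. All but fl/fl IRI 2 exceeded the sham libraries, and Cry1 rose by 1.52 ± 0.43 on the log2 scale (adjusted p = 0.0258). Without fl/fl IRI 4 the log2 value was 0.90 with an adjusted p of 0.118. Leaving out fl/fl sham 1, 2 or 3 in turn also ended the call, with adjusted p of 0.0594, 0.0648 and 0.0804. The call of Per3 was likewise narrow: leaving out fl/fl sham 1, 3 or 4 or fl/fl IRI 2, 3 or 4 gave adjusted p of 0.0515, 0.0601, 0.0730, 0.0510, 0.0740 and 0.0654. Cry2, the paralogue of Cry1, ranged over 34.2 to 44.3 CPM after sham and was 32.8, 30.0, 23.2 and 66.9 CPM in fl/fl IRI, with a log2 value of 0.01 ± 0.27 (adjusted p = 0.987) that became -0.41 without fl/fl IRI 4.

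Of the REV-ERB genes, Nr1d1 was the called member with the smallest SE. It stood at 90.6, 125, 115 and 109 CPM in fl/fl sham and at 44.6, 78.5, 64.8 and 70.7 CPM in fl/fl IRI. Every IRI library lay below every sham library. The log2 fold change was -0.77 ± 0.17 (adjusted p = 0.00868), and the call held in all 16 fits that left out 1 library, with values of -0.87 to -0.62. Nr1d2, which partly covers for Nr1d1, stood at 122, 106, 139 and 119.8 CPM in fl/fl sham and at 91.0, 88.3, 84.3 and 122 CPM in fl/fl IRI. After IRI 3 libraries lay below all sham libraries and fl/fl IRI 4 lay among the sham values, with a log2 value of -0.34 ± 0.16 (adjusted p = 0.161). Nr1d2 passed in 0 of the 16 fits that left out 1 library (lowest adjusted p 0.0619). Without both fl/fl IRI 4 and iGKO sham 4, a choice made after seeing the data, its log2 value was -0.45 with an adjusted p of 0.0255. The exons of Nr1d1 share 263 bases with Thra, the thyroid hormone receptor on the opposite strand, which is 8.55% of its exon length in GENCODE. For Thra itself the log2 value was -0.62 (adjusted p = 0.0562), and how the counting treated strand is not given in the sources used here.

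Among the output genes, Tef had the largest fall of the called members. It stood at 449.9, 362, 473 and 438 CPM in fl/fl sham and at 318, 159, 131 and 137 CPM in fl/fl IRI. No IRI library reached the sham range, though fl/fl IRI 1, the library with low injury markers, came close. Tef fell by 1.21 ± 0.26 on the log2 scale (adjusted p = 0.00632) and kept its call in all 16 fits without 1 library, with values of -1.60 to -1.07. Dbp stood at 151, 105, 165 and 187 CPM in fl/fl sham and at 98.3, 74.6, 60.4 and 45.7 CPM in fl/fl IRI. The groups did not overlap and the mean was 45.9% of sham, yet the log2 value of -1.12 ± 0.41 missed the threshold (adjusted p = 0.0761), with a spread pooled over all groups. It passed when the pair of fl/fl groups was fitted alone (adjusted p = 0.0307), without iGKO sham 4 (0.0249) and without fl/fl IRI 1 (0.0420). Dbp shares 539 exon bases (18.0%) with Sphk2 on the other strand, whose log2 value was 0.11 (adjusted p = 0.761). Both genes had their highest value of all libraries in iGKO sham 4. There Dbp was at 307 CPM, and Sphk2 at 93.4 CPM against 50.1 to 54.1 CPM in the other iGKO sham libraries. The part of the shared bases in the Dbp counts was not tested. Hlf, the third D-box activator and no member of the 10, fell by 1.94 ± 0.50 on the log2 scale (adjusted p = 0.0168), with 105.7 to 155 CPM after sham and 79.0, 38.6, 11.0 and 8.60 CPM in fl/fl IRI 1 to 4. The summed proximal tubule markers were also lowest in fl/fl IRI 2, 3 and 4, at 8573, 4309 and 8171 CPM against 15300 CPM in fl/fl IRI 1. Markers of the distal convoluted tubule summed to 1360, 948.6 and 1033 CPM in those 3 libraries and to 2019 CPM in fl/fl IRI 1, beside 2032 to 3228 CPM in fl/fl sham. The 5 neutrophil markers summed to 21.8, 92.8, 185 and 25.9 CPM in fl/fl IRI 1 to 4 and to 5.32 to 9.72 CPM in fl/fl sham, where Ly6g was at 0. The part of these cell types in the falls was not tested.

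**Figure D1:**
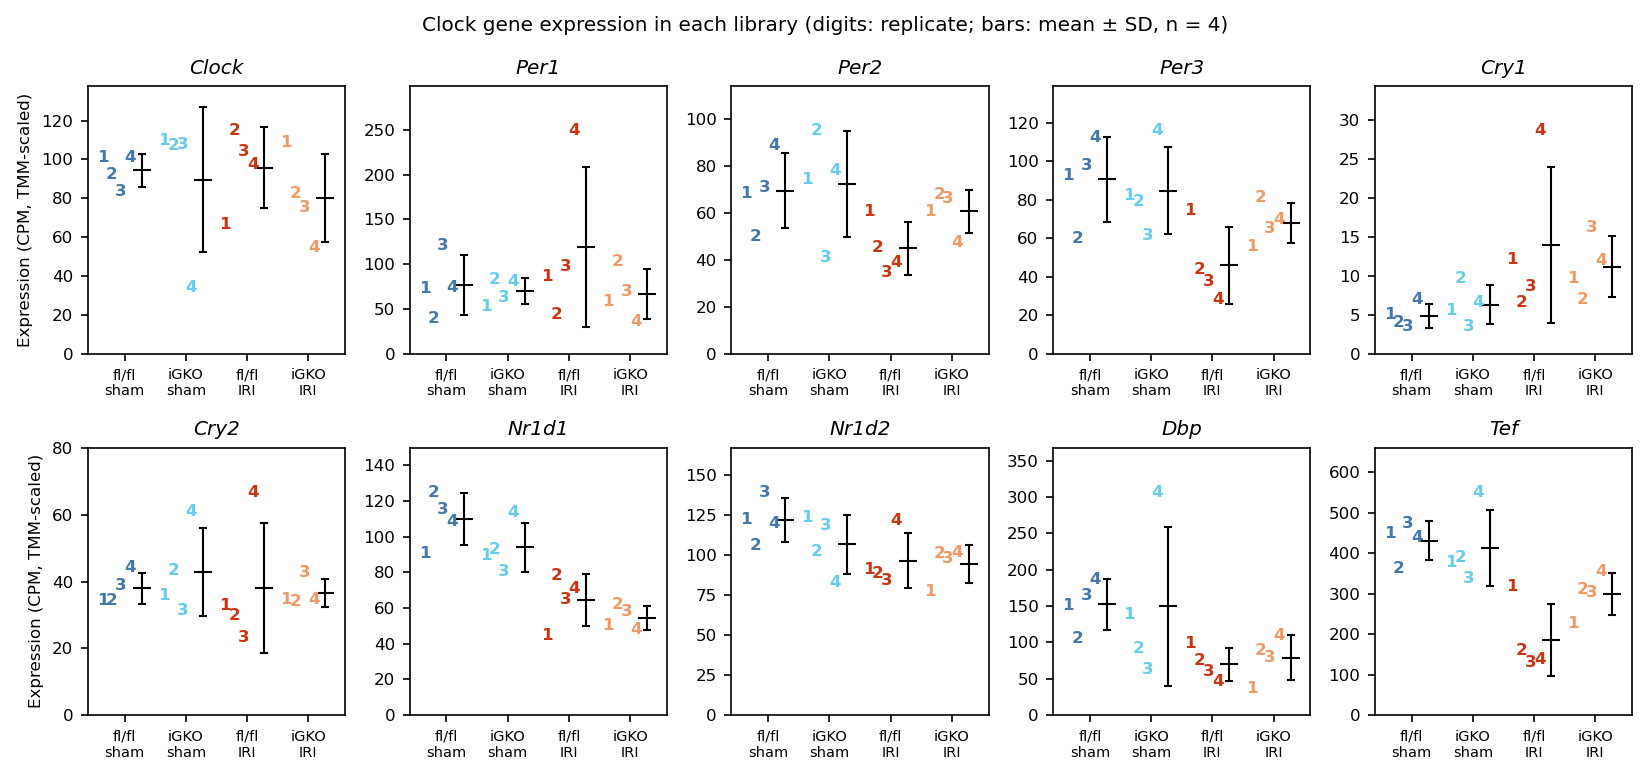
Expression of the 10 clock genes in CPM with TMM scaling (vertical axes from 0), 1 panel per gene and 1 column per group. Digits mark the replicate number of each library and black bars the mean ± SD (n = 4). Nr1d1, Dbp and Tef show no overlap of fl/fl IRI with fl/fl sham. The library fl/fl IRI 4 has the highest value of Per1 (249 CPM), Cry1 (28.6 CPM) and Cry2 (66.9 CPM).

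The other genes of the pathway moved in both directions as well. Of 17 clock partners and regulators, 3 rose and 3 fell in fl/fl after IRI, against 8.46% of all genes that rose and 7.01% that fell. Their median log2 value was 0.17, beside 0.01 over all genes. Those that rose were Nfil3, the D-box repressor, and Csnk1d and Csnk1e, the casein kinases that phosphorylate PER proteins. Nfil3 stood at 3.79, 2.92, 2.52 and 2.80 CPM in fl/fl sham and at 10.5, 8.32, 17.2 and 36.4 CPM in fl/fl IRI. The groups were well apart, with a log2 fold change of 2.59 ± 0.40 (adjusted p = 0.00114). Csnk1d and Csnk1e rose by 0.46 (adjusted p = 0.0202) and 1.00 (0.0156). Those that fell were Hlf, Ciart and Fbxl21. Ciart, a repressor of CLOCK and BMAL1, stood at 17.5, 4.67, 19.5 and 18.3 CPM in fl/fl sham and at 4.92, 3.31, 5.79 and 4.93 in fl/fl IRI (log2 -1.66 ± 0.45, adjusted p = 0.0217). Only fl/fl sham 2 lay within the IRI range. Fbxl21, an F-box protein that acts on the CRY proteins, fell by 1.08 (adjusted p = 0.0354). Bhlhe40, a repressor that competes for E-boxes, had a log2 value of 0.61 (adjusted p = 0.121). Of 7 output genes common to many tissues, 1 rose and 1 fell, beside the same shares of all genes, with a median log2 value of -0.15. Usp2, a deubiquitinase, fell by 1.26 (adjusted p = 0.0370) and Tspan4, a tetraspanin, rose from 43.0 ± 1.83 to 95.8 ± 26.3 CPM (0.00159). Some of these calls were narrow. That of Usp2 was lost without fl/fl sham 1, 3 or 4 or fl/fl IRI 2, 3 or 4 (adjusted p 0.0656 to 0.110), while without fl/fl IRI 1, at 165 CPM among the sham values, its log2 value was -2.04. Ciart lost its call without fl/fl sham 1, 3 or 4 or fl/fl IRI 2 (0.0548 to 0.0655). Fbxl21 and Csnk1d lost theirs without fl/fl sham 1, 3 or 4 or fl/fl IRI 4 (0.0692 to 0.0975 and 0.0509 to 0.0654), and Csnk1e without fl/fl sham 3 (0.0526). The call of Fbxl21 was also lost on total library size (adjusted p = 0.0578) and with no filter on low counts (0.0539). That of Csnk1d was lost with no filter (0.0712).

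The same comparison in iGKO gave no call among the members, nor among any genes: edgeR called 0 of 17972 (0%), with 1145 at an unadjusted p under 0.05, and DESeq2 called 44. Of the members, 2 had an unadjusted p under 0.05, Nr1d1 and Dbp. The fold changes of 9 of the 10 members lay below 0, with a median of -0.24 against -0.02 over all genes. Nr1d1 stood at 89.5, 92.6, 80.5 and 113 CPM in iGKO sham and at 50.04, 61.9, 57.8 and 47.8 CPM in iGKO IRI. It was the only member whose iGKO groups did not overlap (2.76% of all genes were lower and 2.24% higher without overlap). Its mean was 57.9% of iGKO sham, with a log2 value of -0.79 ± 0.17 and an adjusted p of 0.285 in edgeR and 0.0224 in DESeq2. The values in both genotypes were thus close for Nr1d1, and the difference between them was -0.02 ± 0.24 on the log2 scale (interaction, adjusted p = 0.980).

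Tef stood at 376.5, 389.5, 338.5 and 551 CPM in iGKO sham and at 227, 311, 303 and 354 CPM in iGKO IRI. There, 3 of the 4 IRI libraries lay below all sham libraries and the log2 value was -0.47 ± 0.25 (adjusted p = 0.838). Dbp varied most in iGKO sham, at 138, 91.8, 62.1 and 307 CPM, against 37.0, 88.9, 79.6 and 109.7 CPM in iGKO IRI. Its log2 value of -0.92 ± 0.41 (adjusted p = 0.763) became -0.29 without iGKO sham 4. Per3 (-0.32), Per2 (-0.25), Cry2 (-0.23), Nr1d2 (-0.18), Clock (-0.16) and Per1 (-0.07) had smaller log2 values, none of which passed. Clock became -0.42 without iGKO sham 4, where it was the lowest of all libraries. Cry1 was the member above 0, at 5.48, 9.59, 3.52 and 6.54 CPM in iGKO sham and 9.65, 6.97, 16.2 and 11.9 CPM in iGKO IRI (log2 0.83 ± 0.42, adjusted p = 0.808). No gene of the 17 partners and regulators or of the 7 common output genes passed in iGKO. Ciart had a log2 value of -1.23 (adjusted p = 0.665) and Nfil3 of 0.85 (0.755).

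**Figure D2:**
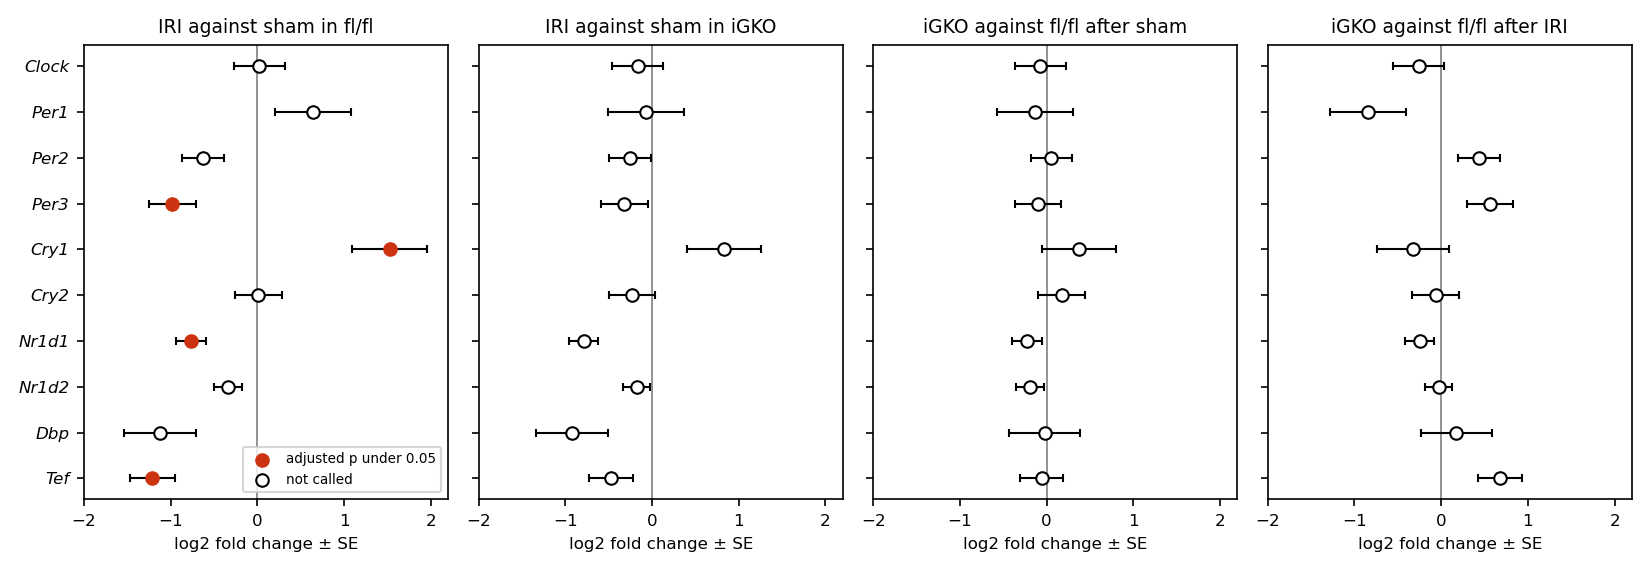
Log2 fold change ± SE of each clock gene in the comparisons named above the panels (horizontal axes, 1 row per gene, from edgeR). Filled red points passed an adjusted p of 0.05 and open points did not. Cry1 lies to the right and Per3, Nr1d1 and Tef to the left in fl/fl, and no point is filled in the other panels.

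Between the genotypes no member passed the test. After sham, the groups of all 10 members overlapped, while edgeR called 0% of all genes (0 of 17972, 210 at an unadjusted p under 0.05, 0 in DESeq2) and 1.93% did not overlap. The log2 values lay between -0.23 (Nr1d1) and 0.37 (Cry1), and that of Dbp went from -0.02 to -0.65 without iGKO sham 4. The iGKO and fl/fl sham means of Clock were 89.7 ± 37.1 and 94.4 ± 8.502 CPM (SD, n = 4 each), and the greater SD in iGKO came from the 34.0 CPM of iGKO sham 4 against 107 to 110.0 CPM in the other 3 libraries. After IRI, 0 of the 10 passed and none was without overlap, against 0.851% of all genes called (153) and 5.52% without overlap. DESeq2 also called 0 members there. In edgeR, 3440 of the 17972 genes had an unadjusted p under 0.05 and, of the 10 members, only Tef. Its mean was 299 ± 52.5 CPM in iGKO IRI and 186 ± 88.8 CPM in fl/fl IRI, a log2 value of 0.68 ± 0.25 (adjusted p = 0.170). Per3 had 0.56 ± 0.27 (adjusted p = 0.263), Per2 0.44 ± 0.24 (0.328) and Per1 -0.84 ± 0.44 (0.305, -0.19 without fl/fl IRI 4). Hlf in iGKO IRI did not overlap with fl/fl IRI, by a narrow margin (79.06 to 136 against 8.60 to 78.97 CPM). Its log2 difference was 1.54 ± 0.49 (adjusted p = 0.122). Bhlhe40 (-0.58, adjusted p = 0.238) and Csnk1d (-0.29, 0.212) were also without overlap, lower in iGKO IRI. After sham, Nfil3 (3.84 to 8.16 CPM in iGKO, 2.52 to 3.79 in fl/fl) and the common output gene Lonrf3 were without overlap. Both were higher in iGKO, and neither passed.

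The interaction asks whether the response to IRI differed between the genotypes. No member passed, nor did any gene in edgeR (0 of 17972, 0%, with 2033 at an unadjusted p under 0.05 and 112 called by DESeq2, no member among them). The values of Tef (0.74 ± 0.36, adjusted p = 0.451) and Per3 (0.66 ± 0.38, 0.519) were the farthest above 0, and those of Per1 (-0.70 ± 0.62, 0.691) and Cry1 (-0.69 ± 0.60, 0.685) the farthest below. Whether members were called turned on fl/fl IRI 1. Without it, Tef and Per3 were higher in iGKO than in fl/fl after IRI (log2 1.07, adjusted p = 0.00225, and 0.90, 0.0218), and the interaction passed for Tef (1.13, 0.0229). In the same fit the number of all genes called went from 153 to 2495 between genotypes after IRI and from 0 to 776 for the interaction.

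**Figure D3:**
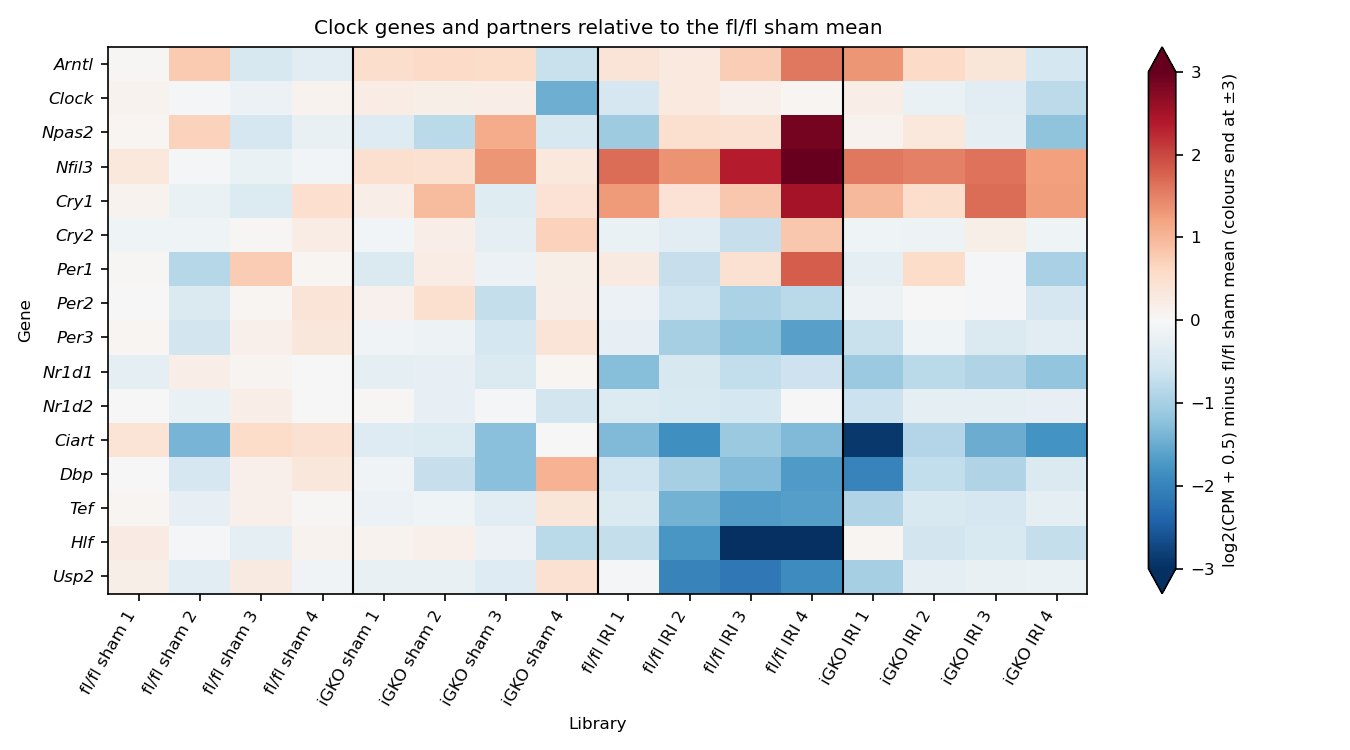
Clock genes and partners (rows) in the 16 libraries (columns, grouped by vertical lines), as log2(CPM + 0.5) minus the mean of fl/fl sham. Red is higher and blue lower, with colours ending at ±3. The bottom rows, from Dbp to Usp2, are blue in fl/fl IRI 2, 3 and 4, and Npas2, Nfil3 and Cry1 are reddest in fl/fl IRI 4 (2.87, 3.41 and 2.49).

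As no hour is known, the libraries were compared by genes described as peaking at opposite phases of the loop. For this, the mean log2(CPM + 0.5) of Arntl, Npas2, Clock, Cry1 and Nfil3, the arm that peaks towards dawn, was subtracted from that of Per1, Per2, Per3, Nr1d1, Nr1d2, Dbp and Tef. In fl/fl sham 1 to 4 the difference was 3.63, 3.14, 4.33 and 3.92, compared with 3.00, 2.39, 2.00 and 1.02 in fl/fl IRI 1 to 4. The fl/fl groups did not overlap. In iGKO it was 3.41, 3.38, 2.704 and 4.36 after sham and 2.09, 2.95, 2.69 and 3.19 after IRI, and these groups overlapped. The group means ± SD (n = 4) were 3.76 ± 0.50 in fl/fl sham, 3.46 ± 0.68 in iGKO sham, 2.10 ± 0.83 in fl/fl IRI and 2.73 ± 0.47 in iGKO IRI. In fl/fl the IRI mean was lower by a difference of -1.66, made up of -0.68 in the Per, Nr1d and output arm and 0.98 in the Arntl arm. Of the Arntl arm, Nfil3 (log2 2.59) and Cry1 (1.52) passed the test in fl/fl. Arntl itself (0.80), Npas2 (1.42) and Clock (0.02) did not. In iGKO the IRI mean was lower by a difference of -0.73, made up of -0.40 and 0.33, and by -0.43 without iGKO sham 4. With each library left out in turn, the fl/fl difference ran from -1.95 to -1.30 and the iGKO difference from -0.99 to -0.43. The genotypes differed by -0.29 after sham (-0.59 without iGKO sham 4, -0.50 without fl/fl sham 2, -0.10 without fl/fl sham 3, -0.04 without iGKO sham 3) and by 0.63 after IRI (0.27 without fl/fl IRI 4). The genotype values over all 4 libraries were less than the range within any group, which was 1.099 to 1.97. So, in size, was the difference of -0.73 between operations in iGKO. The fl/fl difference of -1.656 was less in size than the range in fl/fl IRI (1.974) and iGKO sham (1.659). It was more than that in fl/fl sham (1.192) and iGKO IRI (1.099). These values describe the libraries and were given no test, and the arms contain genes that also respond to injury or stress by other routes. Whether the values reflect the phase of the clock was not tested.

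Within one operation, all samples were taken at the same interval after surgery, and some clock genes were still related across animals. Over the 8 sham libraries, Dbp and Arntl were opposed (Pearson r = -0.834, permutation p = 0.00682, adjusted 0.0375 and Spearman rho = -0.881, permutation p = 0.00724, adjusted 0.0797). Without iGKO sham 3 and 4, the libraries farthest from the median of Dbp, r was -0.862. Over the 8 IRI libraries r was -0.889 (permutation p = 0.00260, adjusted 0.0249) and rho -0.762 (permutation p = 0.0368, adjusted 0.162). Without fl/fl IRI 4 and iGKO IRI 1 these were -0.727 and -0.486, so the relation after IRI rests in part on those libraries. Dbp and Per3 were positively related in sham (r = 0.885, permutation p = 0.00270, adjusted 0.0249 and rho = 0.929, permutation p = 0.00223, adjusted 0.0491) with r = 0.826 without iGKO sham 3 and 4. After IRI their r was 0.652 (permutation p = 0.0811, adjusted 0.223). For Nr1d1, r with Dbp was 0.547 in sham and -0.283 after IRI, and with Arntl -0.389 and 0.308 (adjusted permutation p 0.358, 0.707, 0.559 and 0.707). Leaving out the 2 libraries farthest from the median changed them to 0.079, -0.735, -0.909 and 0.559, in the same order. Only the relation with Dbp in sham became weaker, and the others kept their sign and grew in size. The remaining clock pairs, of genes on the same arm, were not clearly related. For Per2 with Nr1d1, r was 0.159 in sham and -0.494 after IRI (adjusted permutation p 0.754 and 0.409). For Per1 with Per2 it was 0.486 and -0.245 (adjusted permutation p 0.409 and 0.712). The adjustment covers 22 relations, among them those of the 10 members with the injury marker Havcr1 after IRI. No pooled r is given for those, since Havcr1 split the IRI libraries into 3 high ones (fl/fl IRI 2, 3 and 4) and 5 low ones, each fewer than a relation needs.

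**Figure D4:**
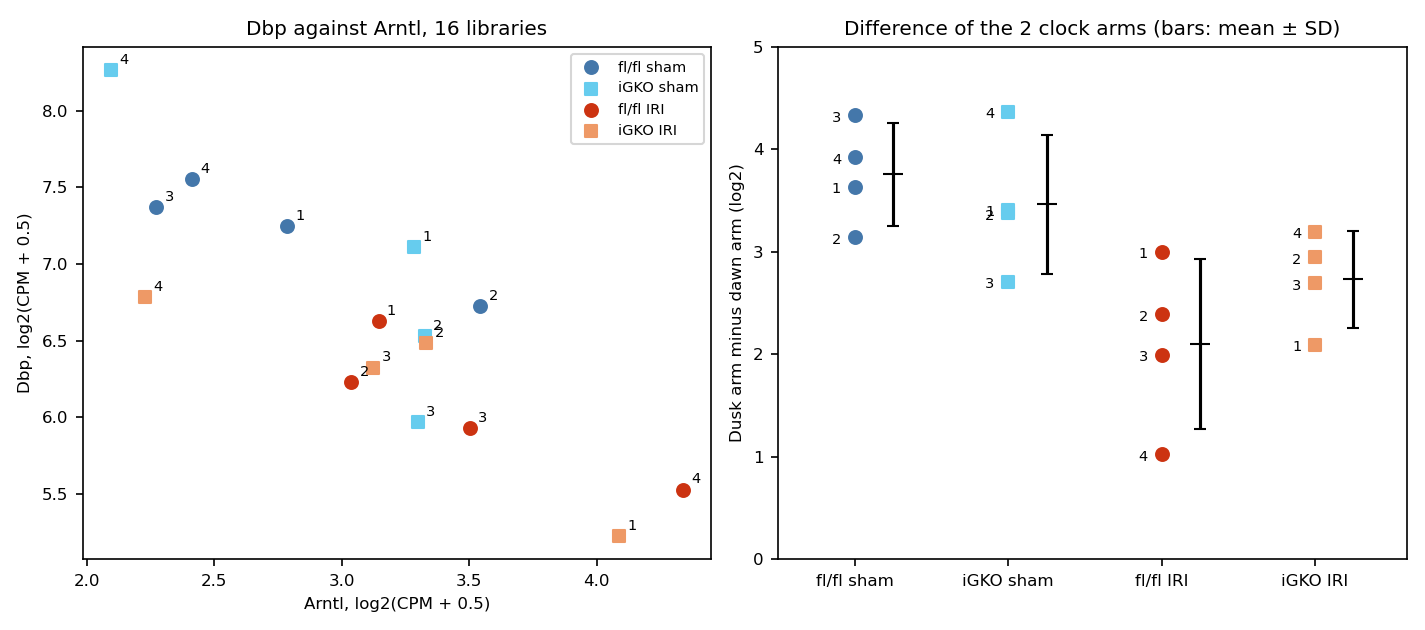
Left, Dbp against Arntl in the 16 libraries, both axes as log2(CPM + 0.5), with digits for the replicate number. Right, the Per, Nr1d and output arm (labelled dusk) minus the Arntl arm (labelled dawn) on the log2 scale, by group, with black bars for the mean ± SD (n = 4). The points at left run from iGKO sham 4 at upper left to fl/fl IRI 4 and iGKO IRI 1 at lower right, and at right the fl/fl sham values (3.14 to 4.33) lie above those of fl/fl IRI (1.02 to 3.00).

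Across all 16 libraries, 13228 genes with a mean of at least 1 CPM were ranked by their likeness to Dbp, as Pearson's r of log2(CPM + 0.5). The libraries share the difference between operations, so these values are a description. The most like were Vill (0.886), a villin-like actin-binding protein, Stat5b (0.876), the transcription factor that carries growth hormone signals, Zfp69 (0.848), Fmnl1 (0.841) and Gpr179 (0.840). The most opposed were Sec61a1 (-0.873), the channel of the endoplasmic reticulum translocon, Arntl (-0.845), Maoa (-0.821), Wdr12 (-0.817) and Itga6 (-0.808). Arntl was thus among the 5 most opposed genes of the ranking. The ranking leans on iGKO sham 4, the library with 0.443% mitochondrial counts, where Dbp was highest (307 CPM). There the 5 most like genes were all at their highest of the 16 libraries (Vill at 192.5 CPM). The 5 most opposed were all at their lowest there (Maoa at 4.11 and Arntl at 3.77 CPM). No r without that library is given, so the ranking is not a measure of likeness in the clock. Among clock genes, r with Dbp was 0.830 for Per3, 0.796 for Tef, 0.789 for Ciart, 0.725 for Usp2, 0.615 for Per2, 0.592 for Nr1d1, 0.423 for Hlf, 0.281 for Cry2 and 0.274 for Nr1d2. It was below 0 for Per1 (-0.137), Cry1 (-0.438), Npas2 (-0.529), Clock (-0.549) and Nfil3 (-0.759).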

How the data were processed

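RNA of 16 kidney cortices was measured by stranded, rRNA-depleted total RNA sequencing, per the labels. The authors deposited raw read counts per Ensembl gene; the submitters' processing notes list STAR 2.7.9a, featureCounts 1.6.3, cutadapt 1.16, DESeq2 1.36.0 and quality control tools, with GRCm39 (mm39) as the build. The annotation release and strand setting are not given in the sources used here. No molecular identifiers were counted, so reads are not independent molecules.

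Groups came from the labels. The 10 members, the lists of 17, 7 and 7 genes, the markers and the named genes (all members, called list genes, further clock partners, of which 1 is not reported here, Degs1 and the 5 genes most like and unlike Dbp) were chosen with earlier results of these data known. Symbols came from GENCODE M21 by identifier. The test was edgeR 4.0.16 under R 4.3.3 (filterByExpr, TMM, 1 coefficient per group, all 16 libraries, quasi-likelihood test, Benjamini-Hochberg adjustment over 17972 genes, threshold 0.05, two-sided), with 5 contrasts. The SE is the log2 fold change divided by the root of F. The procedure was tested on simulated counts. Alternatives were DESeq2 1.42.0, other scalings, no filter, compared groups alone, a replicate block and leaving out libraries. Leaving out fl/fl IRI 4 with iGKO sham 4 was chosen after seeing the data, as were the alternatives for the arms and Degs1.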

Additional observations from a re-analysis of the deposited data

Results flagged for a closer look

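Among 44 groups of 4 values, 4 held a library far from the others by Dixon's test at the 95% level, where chance gives about 1 in 20. Clock was at 34.0 CPM in iGKO sham 4, against 107 to 110.0 CPM in the other iGKO sham libraries. Tef was at 318 CPM in fl/fl IRI 1, against 131 to 159 CPM in fl/fl IRI 2, 3 and 4. Cry2 was at 42.8 CPM in iGKO IRI 3, against 34.1 to 34.7 CPM in the other iGKO IRI libraries. Nr1d2 was at 77.1 CPM in iGKO IRI 1, against 98.0 to 101 CPM in the others. Arntl, no member and not among the 4, also stood apart in iGKO sham 4. It was at 3.77 CPM there, against 9.24 to 9.53 CPM in the other iGKO sham libraries.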

How the results depend on the processing

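The number of clock genes called in fl/fl after IRI was 4 with RLE size factors, total library size, no filter, the replicate block and both fl/fl IRI 4 and iGKO sham 4 left out, 3 with the compared groups alone and 5 with DESeq2. It ran from 2 (without fl/fl sham 1, fl/fl sham 3 or fl/fl IRI 4) to 6 (without fl/fl IRI 1) over the 16 fits without 1 library. The 3 calls with the compared groups alone included Dbp, and the 4 with both libraries left out included Nr1d2. Dbp and Nr1d2 were not called in the main fit, so in each of these fits calls among Nr1d1, Tef, Per3 and Cry1 were lost. Equal totals thus do not mean that the same genes were called. In iGKO after IRI the number of clock genes called was 1 with DESeq2 (Nr1d1, lower) and 0 otherwise. Between genotypes after IRI it ran from 0 to 2 and for the interaction from 0 to 1 over the fits without 1 library, with the highest values without fl/fl IRI 1. Between genotypes after sham it was 0 throughout. No log2 fold change of a called gene changed sign, while that of Klf9 in fl/fl, 0.01 and not called, was -0.5648 and passed without fl/fl IRI 4 (range 0.2159 to -0.5648 without 1 library) and was -0.5484 without both libraries. Over all genes, fl/fl IRI against sham gave 2779 calls, 1526 with the compared groups alone and 1452 to 4335 without 1 library. Genotypes after IRI gave 153 calls, 85 on total library size, 352 with no filter, 947 in DESeq2, 0 with the block or the groups alone and 0 to 2495 without 1 library. IRI against sham in iGKO gave 4 with no filter, and the interaction 15 with no filter and 1 with the block. Replicate numbers were not treated as pairs in the main fit. The correlation of deviations was over 0.1 in 6 of 24 pairs of libraries with the same number (-0.349 to 0.429). Of 16 libraries, 6 correlated best with their own number. These counts had no test and do not settle whether libraries with the same number were paired. With the replicate block the members' calls were as before (Per3 adjusted p = 0.0345). With 49 reads in 1 library, counting error limits Cry1 most.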
